A study of Mus musculus with 20 samples.

Results

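Ascl2, Klf9, Fosb and Purb are the 4 transcription factor genes that the study put into Mettl3-deleted mouse intestinal organoids with retroviruses. They were taken from the sample labels, which name them as the cargo of the viruses, and each matched 1 of the 54838 gene rows of the deposited tables. Their level was followed in 20 libraries, 12 from sorted crypt cells and 8 from organoids. The labels do not say how the study chose these factors. If the crypt libraries served that choice, the crypt tests are not independent of it.

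All mice were of the C57BL/6 strain and carried Mettl3fl/fl, that is, a Mettl3 gene flanked by loxP sites. Mettl3 encodes the catalytic subunit of the enzyme that writes N6-methyladenosine (m6A) into RNA. The knockout mice (Mettl3-/-) also carried Lgr5-EGFP-IRES-CreERT2, which reports the stem cell receptor Lgr5 as green fluorescence and makes an inducible recombinase there, and Villin-CreERT2, which makes it throughout the gut epithelium. They received tamoxifen at 20 mg/ml for 4 days, and crypts were taken at day 3, 4 or 6. Cells were sorted into Lgr5-high and Lgr5-low gates, giving 2 libraries each of wild type Lgr5-high, wild type Lgr5-low, day 4 knockout Lgr5-high and day 4 knockout Lgr5-low cells, 1 library per gate at day 3, and 2 day 6 knockout libraries whose titles name no gate. The sample labels call the wild type crypt cells untreated, whereas the protocol has Mettl3fl/fl mice receive tamoxifen too. The protocol names no reporter allele for Mettl3fl/fl mice, so how their Lgr5 gates were set is not given in the sources used here. Ages and sexes are not given, and no label ties the libraries of a group to different mice, so the p-values measure only the spread between libraries, which may be technical.

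The organoids grew in ENR medium (EGF, Noggin and R-spondin1), with 2 libraries per group. The protocol traces the infected organoids to mice with Mettl3fl/fl and both Cre alleles, and names no other source. Wild type organoids were treated with ethanol for 2 days. Knockout organoids were treated for 2 days with 4-OHT, the active tamoxifen metabolite. The remaining knockout groups carried a retrovirus with Ascl2, Klf9 and Fosb (AKF) or with those 3 and Purb (AKFP), were selected in puromycin, and received 4-OHT, which by the protocol turned on both the Mettl3 deletion and the added factors. No library of organoids with a retrovirus lacking these factors was analysed here, so the viruses and puromycin cannot be told apart from the added genes. The titles of the wild type and knockout organoids alone carry the tag m3-flag, whose meaning is not given.

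Ascl2 is a basic helix-loop-helix factor that marks crypt base stem cells, where it is a target of Wnt signalling. It binds DNA with E protein partners, which ID proteins can sequester. Fosb is an AP-1 subunit: it pairs with Jun proteins, and its gene belongs to the immediate early genes that growth factors, stress and cell dissociation switch on within minutes. Klf9 is a zinc finger factor of the KLF/SP family, induced by glucocorticoid and thyroid hormone and known to follow the circadian clock. Purb binds purine-rich single-stranded DNA and RNA and is best known as a repressor of muscle genes.

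The transcripts of the 4 factors differ in size and layout, as annotated in GENCODE M21 on mm10. Ascl2 (ENSMUSG00000009248) lies at chr7:142966829-142969264 on the minus strand, and 49.2% of its 1605-base transcript is coding. Fosb (ENSMUSG00000003545) lies at chr7:19302696-19310051 on the minus strand, and 26.8% of its 3782-base longest coding transcript is coding. Klf9 (ENSMUSG00000033863) lies at chr19:23141226-23168134 on the plus strand, with 16.3% of 4486 bases coding. Purb (ENSMUSG00000094483) is a single exon of 8319 bases at chr11:6467599-6475917 on the minus strand, of which 11.7% is coding. The antisense gene Gm11973 overlaps Purb by 493 bases and was listed at no more than 0.247 FPKM (fragments scaled to transcript length and to the number of fragments mapped). A gene's FPKM pools every transcript, so RNA from a virus and from the chromosome cannot be told apart, and the labels do not say which part of each gene the viruses hold.

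GGACT is a core favoured by the Mettl3 complex when it methylates RNA. It was counted on the sense strand of the longest coding transcript, and all 4 transcripts hold it. Each holds it exactly 1 time in the coding part, which is 732 to 1014 bases long, and all 4 also hold it in the 3′ UTR. How many other genes hold 1 coding match was not counted. The 4 coding stretches are shown with 10 bases either side, 5′ to 3′, in DNA letters, the core in capitals.
Ascl2: cggggtcccaGGACTgcaggaggcc
Klf9: ccgcctacatGGACTtcgtggctgc
Fosb: tgtcttcggtGGACTccttcggcag
Purb: ccatcaccgtGGACTcgaagcgctt
The Ascl2 core is in exon 2 of 3 (chr7:142968672-142968676, minus strand), and the Klf9 core in exon 1 of 2 (chr19:23141775-23141779, plus strand). The Fosb core is in exon 1 of 4 (chr7:19309341-19309345, minus strand), and the Purb core in its only exon (chr11:6475166-6475170, minus strand). Fosb holds 3 of its 5 matches in the 5′ UTR, whereas 2 of 3 in Ascl2, 3 of 5 in Klf9 and 6 of 7 in Purb are in the 3′ UTR. Per kilobase, Ascl2 had 1.87 matches, Fosb 1.32, Klf9 1.11 and Purb 0.84, against a median of 1.05 over 11138 genes tested in the crypt libraries. These counts place Ascl2 at the 85.3rd percentile of those genes and Purb at the 36.8th. A match is a run of letters, and methylation was not measured in these files.

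**Figure D1:**
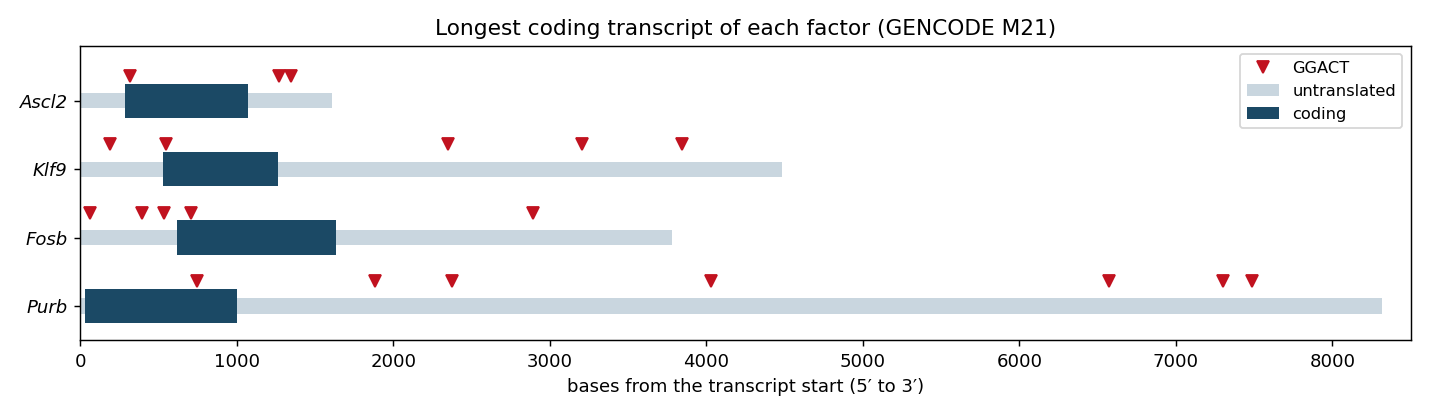
Longest coding transcript of each factor, drawn to scale in bases from its start, with the coding part as a thick bar, untranslated parts as a thin bar and GGACT matches as triangles. Ascl2 has 3 matches on 1605 bases and Purb 7 on 8319, and each transcript has 1 match in the coding part.

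A single fragment on a transcript of 1 kb was worth an estimated 0.0393 to 0.067 FPKM in the crypt libraries and 0.0407 to 0.0551 in the organoid libraries, where a smaller value means a deeper library. That depth puts roughly 130 to 1600 fragments on Ascl2, 260 to 3540 on Klf9, 760 to 8910 on Fosb and 1250 to 4870 on Purb in a library. Epithelial markers (Epcam, Vil1, Cdh1 and keratins, 6 genes) summed to 2298 to 3701 FPKM in every group, 9 immune markers to 0.808 to 17.4 FPKM and 9 stromal and endothelial markers to 0.115 to 3.84 FPKM. Lgr5 was at 10.1 and 10.4 FPKM in wild type Lgr5-high libraries and at 0.715 and 0.974 in Lgr5-low ones. Mettl3 lay between 2.75 and 4.99 FPKM in the crypt libraries, with wild type and knockout overlapping, and between 3.23 and 4.22 in the organoids. A gene-level FPKM does not show whether the flanked exons are gone, so Mettl3 checks no label here. Day 6 replicate 1 and day 4 Lgr5-high replicate 1 had the largest summed FPKM of the crypt libraries, 763177 and 607817. Defensin and lysozyme genes of Paneth cells took 45.8% and 27.6% of summed FPKM in these 2 libraries, against 15 to 26.9% in the other 10 crypt libraries. The second of these shares is thus close to the highest of the others. Values without either of the 2 libraries with the largest sums are given beside many of the results whose calls or sizes they change.

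Ascl2 levels went with the Lgr5 gate. The wild type Lgr5-high libraries held 39.1 and 40.0 FPKM of Ascl2 and the Lgr5-low ones 9.40 and 7.91 FPKM. At day 3 of knockout it was 38.6 FPKM in Lgr5-high and 14.2 in Lgr5-low cells, and at day 4 it was 40.3 and 31.2 FPKM in Lgr5-high and 9.96 and 5.31 in Lgr5-low cells. In each genotype and at each day all Lgr5-high libraries lay above all Lgr5-low ones. The wild type gate difference was 2.07 ± 0.32 (SE) on the log2(FPKM + 1) scale (limma, adjusted p = 0.0233), and of the 4 factors it alone passed there, where 1.2% of 12899 genes did. The call was lost with no filter on low values (adjusted p = 0.0836), with equal library sums (0.0654) and without any 1 of the 4 wild type libraries (0.124 to 0.228).

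Within the day 4 knockout the gate difference for Ascl2 was of like size, 2.13 ± 0.32, with an adjusted p of 0.0807. None of the 4 factors passed there, and 0% of genes did, although 2417 of 12899 had an unadjusted p under 0.05. The day 4 knockout differences of Ascl2 were -0.15 ± 0.32 in Lgr5-high and -0.21 ± 0.32 in Lgr5-low cells (adjusted p = 0.832 and 0.850). The 95% interval in Lgr5-high cells ran from -0.88 to 0.57, so a loss of up to 0.88 on the log2 scale is within it. Without day 4 Lgr5-high replicate 2 the value was 0.03, and without day 4 Lgr5-low replicate 2 the Lgr5-low value was 0.19. Lgr5 itself was lower in the same day 4 Lgr5-high libraries, at 2.31 and 6.00 FPKM, a difference of -1.23 ± 0.36 (adjusted p = 0.146), or -0.69 without day 4 Lgr5-high replicate 1 (0.363).

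In the day 6 knockout libraries Ascl2 was at 3.99 and 7.21 FPKM, below every Lgr5-high library and within or below the range of the Lgr5-low ones. It fell by 2.66 ± 0.32 on the log2 scale against wild type Lgr5-high (adjusted p = 0.00165) and by 2.51 ± 0.32 against day 4 Lgr5-high (0.0142). Without day 6 replicate 1 the first was -2.30 (0.0143). Against the Lgr5-low groups the differences were -0.59 ± 0.32 for wild type and -0.38 ± 0.32 for day 4 (adjusted p = 0.273 and 0.818). As the day 6 titles name no gate and the column header of 1 of the 2 libraries reads as the low gate, gate and day cannot be told apart in this comparison. The stem cell markers Lgr5, Olfm4, Smoc2, Slc14a1 and Axin2 summed to 89.2 and 414.7 FPKM at day 6, against 2998 and 3204 in wild type Lgr5-high cells and 525 to 585 in wild type Lgr5-low cells. Most of these sums was Olfm4, at 77.2 and 384 FPKM at day 6 and 2857 and 3060 in wild type Lgr5-high cells. In bulk RNA, fewer cells of a type and less RNA per cell cannot be told apart. The day 6 against day 4 Lgr5-high call was lost without day 4 Lgr5-high replicate 1 (adjusted p = 0.0728), without day 6 replicate 1 (0.101), with no filter (0.0536) and with only those 2 groups in the fit (0.0843).

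Day 6 was compared with 4 groups, and these comparisons share the day 6 libraries. Against wild type Lgr5-high cells, Ascl2, Fosb and Purb passed and all were lower, where 21.9% of genes passed. Against wild type Lgr5-low cells only Fosb passed, where 11.5% did. Against day 4 Lgr5-high cells only Ascl2 passed (background 3.21%), and against day 4 Lgr5-low cells none of the 4 did (background 0.0543%, with 1069 genes at an unadjusted p under 0.05, Fosb and Purb among them).

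Fosb was called lower in the knockout at day 4 in Lgr5-high cells and at day 6 against either wild type gate, with no call between the gates. Wild type Lgr5-high libraries held 92.6 and 108 FPKM of it, and wild type Lgr5-low libraries 88.0 and 76.5. The gate difference was 0.28 ± 0.32 (adjusted p = 0.738). At day 3 the Lgr5-high library held 76.6 FPKM and the Lgr5-low library 57.7, with no replicate. At day 4 it was 26.2 and 23.5 FPKM in Lgr5-high and 31.5 and 14.1 FPKM in Lgr5-low cells, and at day 6 it was 10.7 and 12.9 FPKM. No day 4 or day 6 library overlapped a wild type one. The 2 day 6 libraries were the lowest of all 12, and the second day 4 Lgr5-low library was next.

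Fosb fell by 1.97 ± 0.32 on the log2 scale in day 4 Lgr5-high cells (adjusted p = 0.0337). It was the only factor of the 4 to pass there, against a background of 1.05% of genes. In day 4 Lgr5-low cells the difference was nearly as large, -1.91 ± 0.32, with an adjusted p of 0.0513, and none of the 4 factors passed (background 0.473%, with 1768 genes at an unadjusted p under 0.05). The change did not differ detectably between the gates: the difference of the 2 differences was -0.06 ± 0.46 (adjusted p = 0.988), with a 95% interval from -1.10 to 0.97. For that difference of differences 0.0155% of genes passed, that is 2 of 12899, and none of the 4 factors. At day 6 Fosb fell by 2.99 ± 0.32 against wild type Lgr5-high cells (adjusted p = 0.00119) and fell by 2.71 ± 0.32 against wild type Lgr5-low cells (0.00267). Both day 6 calls held without each of the 10 libraries in turn. The day 4 Lgr5-high call was lost with no filter (adjusted p = 0.0972), equal library sums (0.0705), only the compared groups in the fit (0.127), and without any 1 of 7 of the 10 libraries (0.0514 to 0.277), namely both wild type libraries of each gate, day 4 Lgr5-high replicate 1 and both day 6 libraries. The Lgr5-low difference passed under 4 other settings, among them quantile normalization (adjusted p = 0.0365), and without any 1 of day 4 Lgr5-high replicate 1 or 2 or day 4 Lgr5-low replicate 1 (0.0214 to 0.0464).

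**Figure D2:**
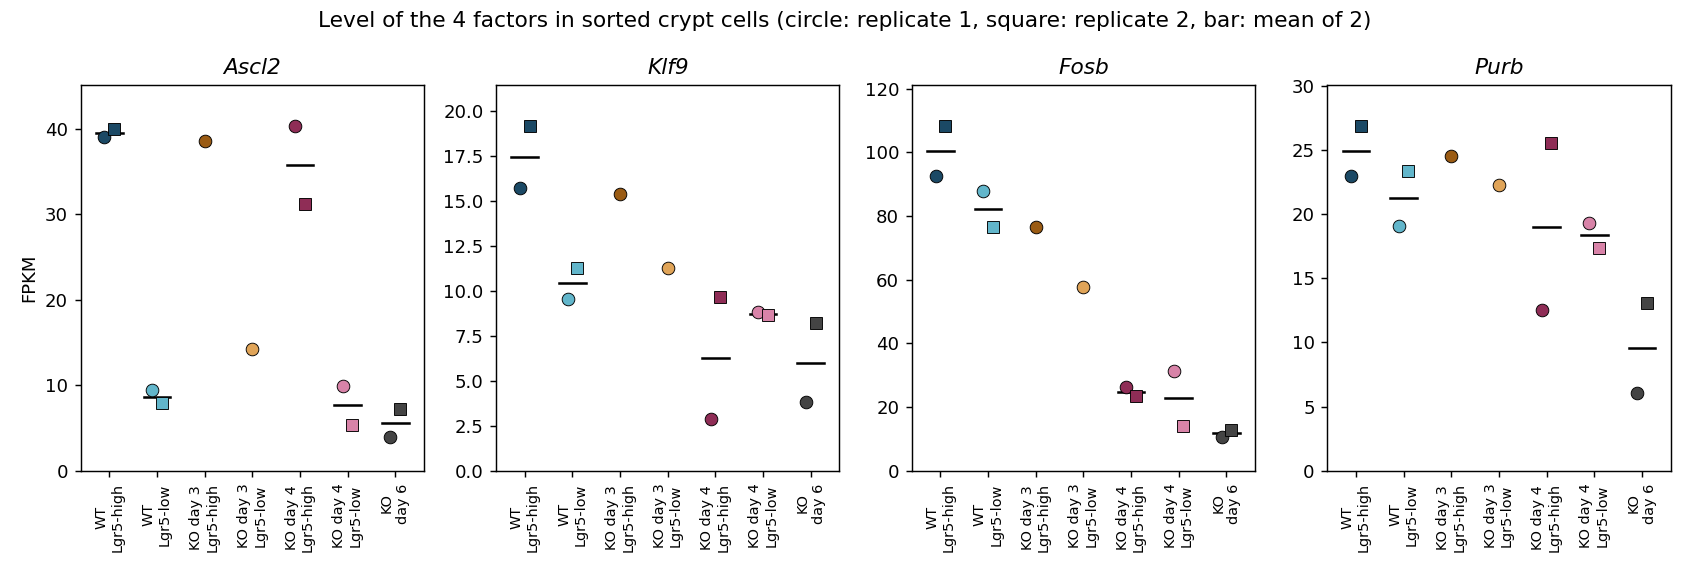
FPKM of each factor in the 7 groups of sorted crypt cells, 1 panel per gene with its own axis from 0, 1 point per library and a bar at the mean of 2 libraries. Ascl2 separates by gate up to day 4, Fosb is at 76.5 to 108 FPKM in wild type libraries and at 10.7 and 12.9 at day 6, and the 2 day 4 Lgr5-high libraries stand apart for Klf9 (2.84 and 9.67) and Purb (12.5 and 25.5).

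Genes that Fosb works with or that are induced beside it were counted in the same comparisons. Of 11 other AP-1 genes 9 were tested: at day 4 in Lgr5-high cells, where 1.05% of all genes passed, 2 fell and none rose. The median difference was -0.90 against -0.02 over all genes. The 2 that fell were Jun, the main partner of Fos proteins (-1.57, adjusted p = 0.0316), and Fos itself (-1.62, adjusted p = 0.0422). In Lgr5-low cells none of the 9 passed, with a median of -0.83. At day 6 against wild type Lgr5-high cells, where 21.9% of all genes passed, 3 AP-1 genes fell (Jun, Fos and Atf3) and 2 rose, 1 of them Batf2 (1.92, adjusted p = 0.0031). The AP-1 median at day 6 was -0.12, close to the -0.16 over all genes. Of 20 immediate early and dissociation genes 19 were tested. In day 4 Lgr5-high cells 18 of them had negative differences and 4 passed, namely Zfp36, Jun, Dusp1 and Fos (Jun and Fos stand in both lists), with a list median of -1.30. In day 4 Lgr5-low cells all 19 were negative with a median of -1.01, and 1 passed, where 0.473% of all genes did. That gene was Zfp36, which encodes a protein that destabilizes AU-rich mRNAs (-1.45, adjusted p = 0.0391). At day 6, 10 fell and 1 rose against wild type Lgr5-high cells, with a median of -1.55. Without day 4 Lgr5-high replicate 1 none of the AP-1 and immediate early genes passed in day 4 Lgr5-high cells, where 0.35% of all genes did, and the medians were -0.998 and -1.32. Without day 6 replicate 1, 7 immediate early genes fell at day 6 and 6.85% of all genes passed, with a list median of -1.69, and at day 4 Fos did not pass in Lgr5-high cells (adjusted p = 0.0612) nor Zfp36 in Lgr5-low cells (0.0529).

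Markers of other cell types also differed between these libraries. In day 4 Lgr5-high libraries goblet markers summed to 3098 and 4390 FPKM, against 896 and 1230 in wild type Lgr5-high ones. Enteroendocrine markers summed to 624 and 1302 FPKM against 69.7 and 178, and enterocyte markers to 352 and 741 against 173 and 230. All 3 sums were higher in both day 4 libraries than in both wild type ones. At day 6 enterocyte markers summed to 2991 and 3100 FPKM, within the 1544 to 3150 of wild type Lgr5-low cells. Their part in the values of Fosb, of the other factors and of the lists was not tested.

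The mean log2 level of these 20 genes was 5.44 to 5.82 in wild type libraries, 5.70 and 5.39 at day 3, 4.59 to 4.85 at day 4 and 4.76 and 4.66 at day 6. Day 3 thus lay inside or just under the wild type range and day 4 below it. The cells were dissociated and sorted alive before RNA was made, a step known to induce these genes; the part of handling time in the Fosb values was not tested. Over the 12 crypt libraries the genes most like Fosb, among 7906 ranked by Pearson correlation of log2 levels, were Jun (r = 0.99), Fos (0.988), Dusp1 (0.985), Egr1 (0.967) and the oxysterol hydroxylase Cyp39a1 (0.966). The least like were Ly6a (-0.983), which encodes the surface protein Sca-1, the interferon-stimulated gene Isg15 (-0.977) and Smim3 (-0.975). These correlations are descriptions: the 12 points share groups, and each group's libraries move together. Without the 2 libraries of largest summed FPKM these 8 values lay between 0.957 and 0.989 and between -0.974 and -0.996.

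The upstream regions of Fosb and of the 2 genes nearest to it in pattern are shown because cAMP response elements are known switches of immediate early genes. Each is the 250 bases before the RefSeq start on GRCm38.p6, 5′ to 3′ on the gene's strand, with TGACG, the core of that element, in capitals where it occurs on this strand, and likewise its reverse complement.
Fosb: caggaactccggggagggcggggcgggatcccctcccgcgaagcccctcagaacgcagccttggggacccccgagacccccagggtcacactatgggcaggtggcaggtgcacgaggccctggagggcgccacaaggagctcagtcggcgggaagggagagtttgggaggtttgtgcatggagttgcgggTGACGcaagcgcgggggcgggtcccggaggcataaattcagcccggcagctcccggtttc
Jun: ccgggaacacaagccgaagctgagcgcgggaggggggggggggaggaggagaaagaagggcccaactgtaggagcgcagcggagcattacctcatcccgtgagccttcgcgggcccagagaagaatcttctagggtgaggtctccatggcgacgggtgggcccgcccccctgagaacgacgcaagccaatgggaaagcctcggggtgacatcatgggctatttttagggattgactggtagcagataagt
Fos: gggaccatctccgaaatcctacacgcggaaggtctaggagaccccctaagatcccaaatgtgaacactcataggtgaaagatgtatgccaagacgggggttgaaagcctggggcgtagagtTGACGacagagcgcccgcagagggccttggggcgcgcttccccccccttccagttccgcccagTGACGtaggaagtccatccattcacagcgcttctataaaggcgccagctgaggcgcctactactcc
The Fosb region is chr7:19310046-19310295 (minus strand), the Jun region chr4:95052223-95052472 (minus) and the Fos region chr12:85473640-85473889 (plus). Fosb holds 1 match, 60 bases before the start, Fos holds 2, and Jun holds none of these letters in the window. A match on either strand occurs in 17.8% of 32851 such regions. In the 300-base windows that reach 50 bases past the start, Klf9 held 1 TGACG match, Purb 4 and Ascl2 none (20.8% of windows hold 1 or more). Purb alone of the 4 held the full palindrome TGACGTCA (1.8%), whose letters hold TGACG on each strand. The letters TGANTCA, with any base at N, were searched on both strands as a loose form of the AP-1 site. They occurred 1 time in Klf9 and not in the others (7.8%). The Klf9 match reads TGAATCA, whereas the usual AP-1 site has C or G in the middle. A match is not evidence of binding.

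**Figure D3:**
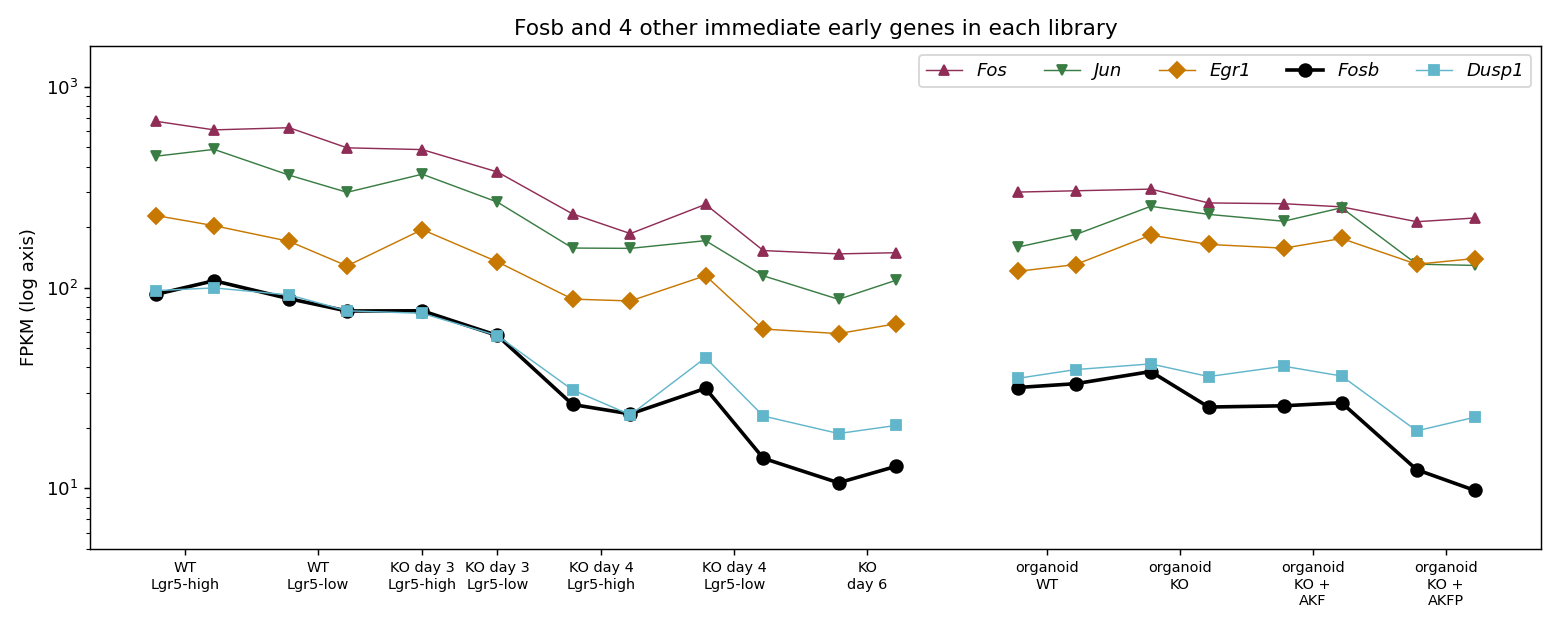
FPKM on a log axis of Fosb (black) and of Fos, Jun, Egr1 and Dusp1 in each of the 20 libraries, ordered by group, lines joining libraries only as a guide. All 5 genes are lower in every day 4 and day 6 crypt library than in every wild type one, and in the organoids Fosb, Fos, Jun and Dusp1, but not Egr1, are lowest in the 2 AKFP libraries.

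Klf9 was higher in the Lgr5-high than in the Lgr5-low gate of the wild type in both libraries, without passing the test. Its wild type values were 15.7 and 19.2 FPKM in Lgr5-high and 9.54 and 11.3 in Lgr5-low cells, a difference of 0.69 ± 0.46 (adjusted p = 0.550). At day 3 it was 15.4 and 11.2 FPKM in the 2 gates. At day 4 the 2 Lgr5-high libraries were far apart, at 2.84 and 9.67 FPKM, whereas the Lgr5-low libraries were at 8.81 and 8.65. Day 6 values were 3.81 and 8.20 FPKM. All day 4 and day 6 libraries lay below all wild type libraries of either gate, except that the second day 4 Lgr5-high library (9.67) lay above the lower wild type Lgr5-low one (9.54).

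No Klf9 difference in the crypt libraries passed. The day 4 Lgr5-high difference was -1.52 ± 0.46 (adjusted p = 0.149), or -0.78 without replicate 1 of that group (0.366) and -2.26 without replicate 2 (0.0343), so the 2 libraries decide it. The day 4 Lgr5-low difference was -0.23 ± 0.46 (adjusted p = 0.903). The day 6 difference from wild type Lgr5-high cells was -1.46 ± 0.46 with an adjusted p of 0.0504. It passed under 5 other settings, among them median-of-ratios scaling (0.0386), quantile normalization (0.0212) and only the compared groups in the fit (0.0328). Without either day 4 Lgr5-high library it stayed at -1.46 and passed. It was -1.93 without day 6 replicate 2, where it passed, and -1.0 without day 6 replicate 1, where it did not.

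Genes around Klf9 in its pathway were described from lists that were chosen with earlier results of these data known. Of 22 other KLF and SP genes 16 were tested, and all 16 had negative day 4 Lgr5-high differences (median -0.54 against -0.02 over all genes). Of them 1 passed, where 1.05% of all genes did: Klf10, an early gene of TGF-beta signalling (-1.31, adjusted p = 0.0359). Without day 4 Lgr5-high replicate 1, 12 were negative, none passed and the median was -0.08 against 0.08. In day 4 Lgr5-low cells 9 were negative, 7 positive and none passed, with a median of -0.01, and Klf10 passed there without day 4 Lgr5-high replicate 1 (0.0439). Of 10 glucocorticoid-induced genes 9 were tested, and 2 fell at day 4 in Lgr5-high cells, where 1.05% of all genes passed. They were Dusp1, a MAP kinase phosphatase that is also an immediate early gene (-1.83, adjusted p = 0.0325), and Pdk4, a kinase of pyruvate dehydrogenase (-1.70, adjusted p = 0.0393). Neither passed without day 4 Lgr5-high replicate 1 (0.0628 and 0.0699) or without day 6 replicate 1 (0.052 and 0.056). At day 6, 6 of the 9 fell against wild type Lgr5-high cells (21.9% of all genes passed), with a median of -1.47, and 2 without day 6 replicate 1 (6.85% of all genes). The 4 hormone receptor genes (Nr3c1, Thra, Thrb, Rxra) all had negative day 4 differences and none passed. At day 6, Thra, a thyroid hormone receptor (-2.68, adjusted p = 0.00155), and Nr3c1, the glucocorticoid receptor (-1.86, adjusted p = 0.0105), fell against wild type Lgr5-high cells, and without day 6 replicate 1 Thra passed (0.00715) and Nr3c1 did not (0.0696). Of 14 clock genes tested, 1 fell at day 4 in each gate, Nr1d1, the clock repressor REV-ERB alpha (-1.80 and -1.61, adjusted p = 0.0122 and 0.0316), and it passed in both gates without either of the 2 libraries. Beside these day 4 counts, 1.05% of all genes passed in Lgr5-high and 0.473% in Lgr5-low cells. The hours at which the crypts were collected are not given in the sources used here.

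The genes most like Klf9 over the crypt libraries were Nek9 (r = 0.979), Etl4 (0.977), C2cd3 (0.976), Dpp8 (0.974) and Fyco1 (0.974), and the least like were Bscl2 (-0.952), Ap1s1 (-0.942) and Mvb12a (-0.94). Klf9 and Purb were the pair of factors most alike in these libraries (r = 0.83), and Ascl2 and Klf9 the least (0.351). Without the 2 libraries of largest summed FPKM this order turned: Ascl2 and Klf9 were at 0.814 and Klf9 and Purb at 0.727, so it rests on those libraries. The 5 genes most like Klf9 were then at 0.904 to 0.945, and the 3 least like at -0.793 to -0.845. The 2 libraries with the largest defensin and lysozyme share of FPKM held the 2 lowest values of both Klf9 and Purb; the part of that share in these values was not tested.

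Purb had no call in the crypt libraries before day 6. It stood at 23.0 and 26.9 FPKM in wild type Lgr5-high cells, 19.1 and 23.4 in Lgr5-low cells, and 24.5 and 22.3 in the 2 day 3 libraries. At day 4 it was 12.5 and 25.5 FPKM in Lgr5-high and 19.3 and 17.4 in Lgr5-low cells. The wild type gate difference was 0.22 ± 0.38 and the day 4 differences -0.45 ± 0.38 and -0.20 ± 0.38, with adjusted p of 0.827, 0.575 and 0.894. Without day 4 Lgr5-high replicate 1 the first of the day 4 values was 0.04.

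At day 6 Purb was at 6.04 and 13.1 FPKM, and both libraries lay below all wild type libraries. It fell by 1.38 ± 0.38 against wild type Lgr5-high cells (adjusted p = 0.0333), and the difference from wild type Lgr5-low cells was -1.15 ± 0.38 (0.0885). Without day 6 replicate 1, the library with 45.8% of FPKM in defensin and lysozyme genes, the first difference was -0.88 (adjusted p = 0.204) and the second -0.66 (0.425). The call was also lost with no filter (0.0922) and without any of 6 further libraries (0.0514 to 0.173). The second difference passed with median-of-ratios scaling (0.0441), with the replicate block (0.0346), and without either day 4 Lgr5-high library (0.0404 and 0.0403) or day 6 replicate 2 (0.0395). The Paneth defensin gene Defa22 was among the 3 genes least like Purb (r = -0.956), after Clic1 (-0.983) and Nupr1 (-0.967); its part in the Purb values was not tested. The most alike were Angel2 (0.986), Brip1os (0.979), Tug1 (0.976), Gphn (0.963) and Ube3c (0.963). Without the 2 libraries these 5 were at 0.875 to 0.959 and Defa22 at -0.904. Pura, the one PUR family gene tested beside Purb, had a day 6 difference of -0.31 from wild type Lgr5-high cells and did not pass.

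Around Ascl2, of 24 other stem cell signature genes all were tested. In the wild type gate comparison all 24 were higher in Lgr5-high cells and 10 passed, where 1.2% of all genes did. Their median was 1.57 against 0.10 over all genes. Among those that passed were Igfbp4 (2.27, adjusted p = 0.0101), which binds insulin-like growth factors, and Lgr5 (2.62, adjusted p = 0.0172). The cells were sorted by Lgr5, so the difference of Lgr5 itself was set by the sort and adds no support. At day 4 in Lgr5-high cells 1 of the 24 fell, Fstl1 (-1.35, adjusted p = 0.0325), where 1.05% of all genes passed. Of the 24, 19 were negative and the median was -0.32 against -0.02 over all genes. Fstl1 did not pass without day 4 Lgr5-high replicate 1 (0.0794) or day 6 replicate 1 (0.0512). At day 6 against wild type Lgr5-high cells 18 of the 24 fell and none rose (21.9% of all genes passed), with a median of -1.60. Against wild type Lgr5-low cells, the other gate, since the day 6 titles name none, 2 fell and 3 rose (11.5% of all genes), with a median of -0.11. Without day 6 replicate 1 the median against Lgr5-high cells was -1.23. Of 6 tested genes for ASCL relatives, E protein partners and ID inhibitors, 4 fell and 1 rose at day 6 against wild type Lgr5-high cells. The 1 that rose was the ID inhibitor gene Id4, at 0.626 and 0.290 FPKM in wild type Lgr5-high cells and 1.81 and 2.79 at day 6. The 4 that fell were Tcf3 (-1.62, adjusted p = 0.00639), an E protein with which ASCL factors pair, and Id1, Id2 and Id3, which block such pairing (-1.05 to -1.21). None of these 4 passed without day 6 replicate 1 (0.0515 to 0.0781). The genes most like Ascl2 over the crypt libraries were the splicing factor Hnrnpa1 (r = 0.977), Cbx3 (0.97) and Eed (0.974), both chromatin proteins, Rcc2 (0.974) and Cdca7 (0.972), which is also in the stem cell list. The least like were Mall (-0.98), Por (-0.979) and the zinc transporter Slc39a4 (-0.978). Without the 2 libraries these 8 values were 0.97 to 0.983 and -0.972 to -0.992.

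**Figure D4:**
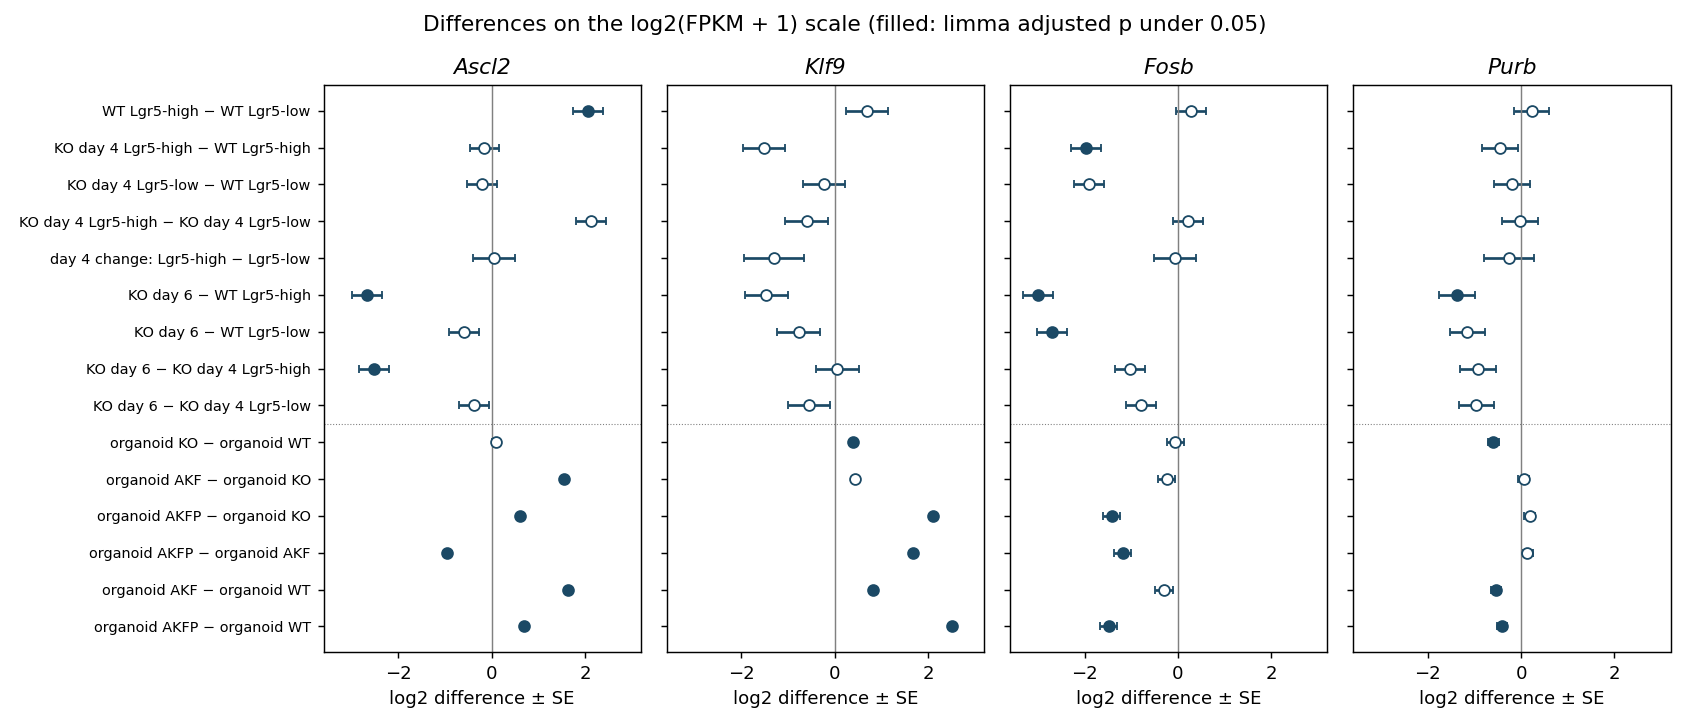
Difference of each factor in the 15 comparisons on the log2(FPKM + 1) scale, with standard errors as bars (shorter than the symbol in some organoid comparisons), filled where the limma adjusted p is under 0.05. Crypt comparisons are above the dotted line and organoid comparisons below it; Fosb is called lower at day 4 in Lgr5-high cells and at day 6, and Klf9 and Ascl2 are called higher in AKFP than in knockout organoids while Fosb is called lower.

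In organoids, Klf9 and Purb differed between Mettl3 knockout without added factors and wild type, and Ascl2 and Fosb had no call. Knockout organoids received 4-OHT and wild type ones ethanol, so the Mettl3 deletion and 4-OHT itself cannot be told apart here. Klf9 was at 5.66 and 5.78 FPKM in wild type and 7.79 and 7.90 in knockout organoids, and rose by 0.40 ± 0.07 on the log2 scale (adjusted p = 0.00667). Purb was at 22.9 and 25.5 FPKM in wild type and 14.3 and 17.1 in knockout organoids, and fell by 0.60 ± 0.12 (adjusted p = 0.0110). The groups did not overlap for either gene. These were 2 of the 4 factors, where 28.2% of 12657 genes passed. In the lists around Klf9, 6 of 15 KLF and SP genes rose and 0 fell, and 4 of 7 glucocorticoid-induced genes rose and 1 fell. Of 16 clock genes 3 rose and 10 fell, and of 4 hormone receptor genes 0 rose and 3 fell. The Purb call was lost without wild type replicate 2 (adjusted p = 0.0631) or knockout replicate 1 (0.0605).

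Ascl2 was at 10.7 and 12 FPKM in wild type and 12.4 and 12 in knockout organoids, a difference of 0.09 ± 0.07 (adjusted p = 0.403), which turned to -0.01 with equal library sums. Fosb was at 31.8 and 33.2 FPKM in wild type organoids, and the knockout libraries, at 38.2 and 25.4, lay on either side of them. Its difference was -0.06 ± 0.18 (adjusted p = 0.839), with a 95% interval from -0.50 to 0.38. The immediate early list differed from Fosb here: of 20 genes 11 rose and none fell in knockout organoids, where 28.2% of all genes passed. The list's median was 0.48 against 0.01 over all genes. The rises were led by the heat shock genes Hspa1a (1.44, adjusted p = 0.000373) and Hspa1b (1.34, adjusted p = 0.000662). Of 9 AP-1 genes tested 6 rose, among them Junb (0.81, adjusted p = 0.00083) and Jund (0.60, adjusted p = 0.00197). Lgr5 fell by 0.63 ± 0.08 (adjusted p = 0.00214).

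Ascl2 was the factor most raised in the AKF organoids. It stood at 36.8 and 38.6 FPKM there against 12.4 and 12 in knockout organoids, and rose by 1.56 ± 0.07 (adjusted p = 0.00199). Of the 4 factors it alone passed between AKF and knockout organoids, where 6 of 12657 genes did (0.0474%). In AKFP organoids it was at 19.0 and 19.2 FPKM, and rose by 0.61 ± 0.07 against knockout (adjusted p = 0.00299). The AKFP level was below the AKF level by 0.94 ± 0.07 (adjusted p = 0.000643), with no overlap. The AKF level was close to that in sorted wild type Lgr5-high cells, 39.1 and 40.0 FPKM, but the 2 tables were made apart and this pair was not tested.

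Klf9 showed the opposite order of the 2 viruses. It was at 11.1 and 10.7 FPKM in AKF and at 36 and 38.4 FPKM in AKFP organoids, against 7.79 and 7.90 in the knockout. In AKFP it rose by 2.11 ± 0.07 against knockout (adjusted p = 2.15e-05) and by 1.68 ± 0.07 against AKF (4.72e-05). In AKF the difference from knockout was 0.43 ± 0.07, with no overlap of the 4 libraries, an unadjusted p of 0.000397 and an adjusted p of 0.201. Over the other settings tried that adjusted p was between 0.164 and 0.698. The AKF organoids did pass against wild type ones (0.82 ± 0.07, adjusted p = 0.000501).

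Fosb, carried by both viruses, was called higher in neither. It was at 25.8 and 26.7 FPKM in AKF organoids, inside the range of the knockout (25.4 and 38.2), with a difference of -0.24 ± 0.18 (adjusted p = 1) and a 95% interval from -0.68 to 0.20. In AKFP organoids it was at 12.4 and 9.77 FPKM, the lowest of the organoid libraries. It fell by 1.42 ± 0.18 against knockout (adjusted p = 0.00384), by 1.18 ± 0.18 against AKF (0.00706) and by 1.48 ± 0.18 against wild type (0.0012), and these calls held without each library in turn and under each scaling tried.

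Purb, added in AKFP alone, was at 19.5 and 16.5 FPKM there, against 15.9 and 16.8 in AKF and 14.3 and 17.1 in knockout organoids, and the 3 groups overlapped. The AKFP difference was 0.19 ± 0.12 from knockout (adjusted p = 0.257) and 0.13 ± 0.12 from AKF (0.433). The 95% intervals ran from -0.09 to 0.46 and from -0.15 to 0.40 on the log2 scale. Against wild type organoids, at 22.9 and 25.5 FPKM, Purb was lower in both virus groups, by 0.54 ± 0.12 in AKF (adjusted p = 0.0143) and 0.41 ± 0.12 in AKFP (0.0270). Leaving out wild type replicate 2 ended both calls (adjusted p = 0.0785 and 0.124). The AKF call also ended without AKF replicate 1 (0.0601), and the AKFP call without wild type replicate 1 (0.0537), without AKFP replicate 2 (0.14), with no filter (0.0676) and with equal library sums (0.0570).

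**Figure D5:**
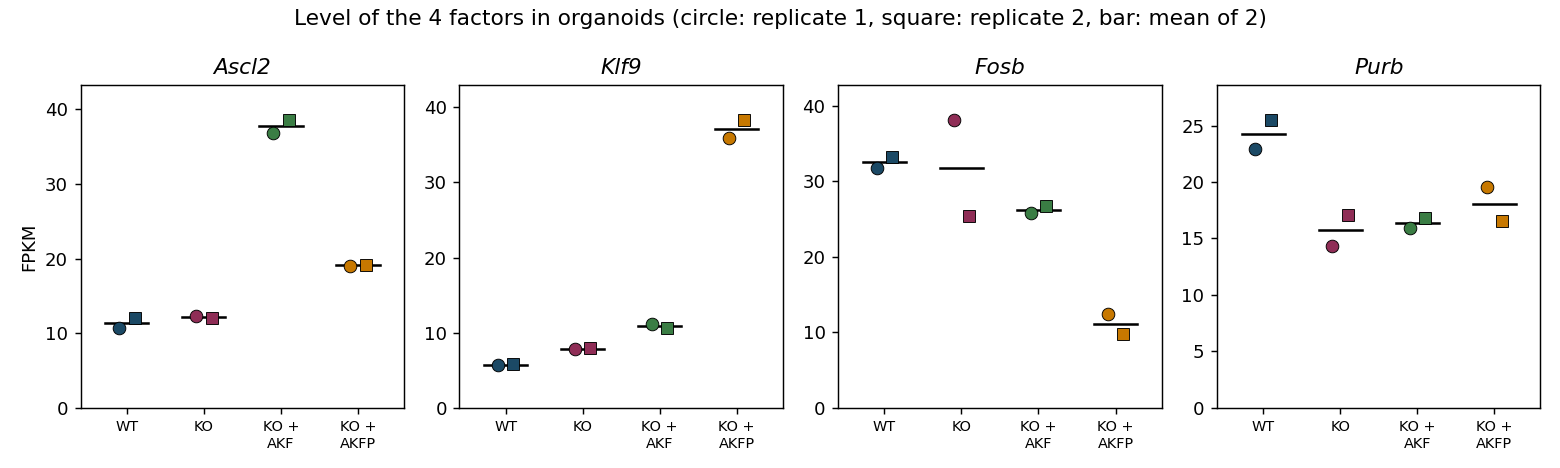
FPKM of each factor in the 4 organoid groups, 1 panel per gene with its own axis from 0, 1 point per library and a bar at the mean of 2 libraries. Ascl2 is highest with AKF (36.8 and 38.6), Klf9 with AKFP (36 and 38.4), Fosb is lowest with AKFP (12.4 and 9.77), and Purb is highest in the wild type (22.9 and 25.5).

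In counts, 3 of the 4 factors passed between AKFP and knockout organoids, Ascl2 and Klf9 higher and Fosb lower, where 26.4% of genes passed. The same 3 passed between AKFP and AKF, Klf9 higher and Ascl2 and Fosb lower, where 25.6% did. Against wild type, 3 factors passed in AKF (Ascl2 and Klf9 higher, Purb lower; background 30.3%) and all 4 in AKFP (Ascl2 and Klf9 higher, Fosb and Purb lower; background 43.4%). These comparisons share libraries, so their calls are not independent. By mean level, Ascl2 ran AKF, AKFP, knockout, wild type from high to low, and the last 2 did not differ beyond their spread. Klf9 ran AKFP, AKF, knockout, wild type with no overlap between neighbours. Fosb ran wild type, knockout, AKF, AKFP, of which only the last stood apart.

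Immediate early and AP-1 genes were lower beside Fosb in the AKFP organoids. Of the 20 immediate early genes, 15 fell and none rose against knockout, where 26.4% of all genes passed. The median was -0.72 against 0.04 over all genes. The falls were led by Ier5 (-0.99, adjusted p = 0.000293) and Junb (-1.01, adjusted p = 0.000537). Of the 9 AP-1 genes 7 fell and 1 rose. Neither list had a called gene between AKF and knockout organoids, where 582 of 12657 genes had an unadjusted p under 0.05. The list's mean log2 level was 5.12 and 5.19 in wild type, 5.68 and 5.43 in knockout, 5.56 and 5.63 in AKF, and 4.87 and 4.99 in AKFP organoids. The AKFP libraries were the lowest and the AKF libraries within the knockout range. The part of handling in these values was not tested.

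Genes tied to the other factors were counted in the same way in AKFP organoids, against the 26.4% of all genes that passed between AKFP and knockout. Of 22 stem cell signature genes tested, 8 rose and 2 fell against knockout, with a median of 0.35. Olfm4, a crypt base stem cell marker, rose (1.19, adjusted p = 0.00202), whereas Nrn1 (-3.34, adjusted p = 4.26e-06) and Igfbp4 (-1.87, adjusted p = 0.00218) fell. Lgr5 differed by 0.25 ± 0.08 (adjusted p = 0.0522). Among the ASCL partners and inhibitors 3 of 5 fell, Id3 (-1.35, adjusted p = 0.00155), Id1 (-1.20, adjusted p = 0.00333) and Id2 (-0.35, adjusted p = 0.0477). In the KLF and SP family 3 rose and 4 fell of 15, with Sp5, a Wnt target, falling by 0.67 (adjusted p = 0.00316). Of 7 glucocorticoid-induced genes 2 fell and none rose, a share near that of all genes, while the thyroid hormone receptor gene Thra fell by 0.56 (adjusted p = 0.00668). Stem cell markers summed to 566 and 653 FPKM in wild type, 287 and 298 in knockout, 295 and 368 in AKF, and 586 and 588 in AKFP organoids. Most of these sums was Olfm4, at 467 and 548 FPKM in wild type and 504 and 509 in AKFP organoids. Lgr5 was at 14.5 and 15.7 FPKM in wild type and 11.3 and 11.5 in AKFP organoids. Smoc2 was at 54.5 and 57.5 FPKM in wild type, 38.3 and 37.7 in knockout, and 36.8 and 40.7 in AKFP organoids. Enterocyte markers summed to 2675 and 2811 FPKM in wild type, 1425 and 1468 in knockout, 1209 and 1988 in AKF, and 740 and 771 in AKFP organoids, the lowest of the 4 groups. Goblet markers were at 885 and 1149 FPKM in wild type and at 2014 to 2629 in the other 6 libraries. Enteroendocrine markers were at 287 and 358 FPKM in wild type, 735 and 761 in knockout, 784 and 811 in AKF, and 428 and 479 in AKFP organoids. The part of these sums in the values of the factors and lists was not tested.

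Across the 8 organoid libraries the genes most like each factor were Epas1 (r = 0.964), Eml4 (0.948) and Clps (0.933) for Ascl2, and Sox21 (0.996), Wasl (0.99) and Synj2 (0.988) for Klf9. They were Rpl9-ps4 (0.984), Taf8 (0.984) and Rnf123 (0.98) for Fosb, and Zfp871 (0.983), Prkca (0.979) and Traf2 (0.979) for Purb. None of these 12 genes is among the genes named as most like the same factor in the crypt libraries. So few were named, of 7829 genes ranked in organoids and 7906 in crypt libraries, that unrelated lists would hardly overlap either. Klf9 and Fosb ran opposite to each other in the organoids (r = -0.959) and alike in the crypt libraries (0.713). With 8 points in 4 groups these values describe the groups, 2 of which carry both genes on a virus.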

How the data were processed

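Gene-level RNA-seq values from 12 libraries of sorted crypt cells and 8 of organoids were used as deposited by the authors, in FPKM. The genome build mm10, the assembler StringTie 1.3.3b and the aligner HISAT2 2.1.0 are named in the submitters' processing notes, without order or settings. The organoid table's header names no unit and its values were taken as FPKM. Whether the counting used strand is not given in the sources used here. Gene identifiers were matched to symbols with GENCODE M21, and sequences came from RefSeq (GRCm38.p6) and GENCODE M21 transcripts.

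Crypt and organoid tables were fitted apart with limma 3.58.1 (R 4.3.3), with a variance trend, on log2(FPKM + 1), over genes that reached 1 FPKM in 2 or more of the fitted libraries: 12899 genes in 10 crypt libraries and 12657 genes in 8 organoid libraries. The p-values were adjusted by Benjamini-Hochberg over all those genes, two-sided, with a threshold of 0.05, in 15 comparisons. Day 3 has 1 library per gate and entered no test. An exact permutation test of 2 libraries against 2 cannot go below p = 0.333, so limma's pooled spread was used. The self-test ran the fit on simulated data. Depth was estimated from the smallest FPKM steps and is rough. No 2 libraries held identical values (0 pairs).

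The 4 factors, the gene lists and the marker lists were chosen with earlier results of these data known. Named genes are the 4 factors, Mettl3, Lgr5, up to 4 genes of a list with the smallest p in a comparison, and the genes with the highest or lowest correlation with a factor. Alternatives were a pseudocount of 0.1, no filter, a filter at 5 FPKM, 3 other scalings, a replicate block, no variance trend, only the compared groups, and leaving out each library. The lists and correlations were also computed without day 4 Lgr5-high replicate 1 and day 6 replicate 1, the 2 crypt libraries with the largest summed FPKM. That alternative was chosen after seeing the data. Python 3.11.15, pandas 2.3.3, scipy 1.17.1 and matplotlib 3.10.9 were also used.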

Additional observations from a re-analysis of the deposited data

Results flagged for a closer look

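Klf9 differed between knockout and wild type in opposite directions in organoids and in crypt cells. The log2 difference was 0.40 in organoids, -1.52 in day 4 Lgr5-high cells and -0.23 in day 4 Lgr5-low cells, and in each case the knockout and wild type libraries did not overlap. The crypt differences did not pass the limma test (adjusted p = 0.149 and 0.903). The crypt and organoid tables were made apart, so the difference between them was not tested.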

How the results depend on the processing

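Of 540 results under other settings 513 kept their direction and side of the threshold, as did 490 of 552 with a library left out. The number of the 4 factors called moved by over 1.5 times in the comparisons named first. Between the wild type gates it went from 1 to 0 with no filter and with equal library sums, and ranged from 0 to 1 with a library left out. For day 4 Lgr5-high it went from 1 to 0 with no filter, equal sums or only the compared groups (0 to 2 with a library left out). For day 4 Lgr5-low it went from 0 to 1 with a filter at 5 FPKM, median-of-ratios scaling, quantile normalization or the replicate block (0 to 1). Between the day 4 gates the block gave 1 (0 to 2 with a library left out). For day 6 against wild type Lgr5-low it went from 1 to 2 with median-of-ratios scaling or the block (1 to 2), and for day 6 against day 4 Lgr5-high from 1 to 0 with no filter or only the compared groups (0 to 2). For organoid knockout against wild type it ranged from 1 to 2. Smaller moves were from 3 to 2 with no filter and to 4 with a filter at 5 FPKM, median-of-ratios scaling, quantile normalization, the block or only the compared groups for day 6 against wild type Lgr5-high (2 to 4 with a library left out), from 4 to 3 with no filter or equal sums for AKFP against wild type (3 to 4), and 2 to 3 with a library left out for AKF against wild type.

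Reversed log2 differences were all of values without a call. The difference between the gates in the day 4 change was -0.041 for Ascl2 with equal sums and -0.036 with quantile normalization, and 0.0069 for Fosb with median-of-ratios scaling. Klf9 at day 6 against day 4 Lgr5-high was -0.15, and Ascl2 in organoid knockout against wild type -0.0072, both with equal sums. With a library left out, day 4 Lgr5-high ranged from -0.33 to 0.027 for Ascl2 and from -0.94 to 0.037 for Purb, and day 4 Lgr5-low from -0.61 to 0.19 for Ascl2. The day 4 gate difference ranged from -1.34 to 0.13 for Klf9, -0.33 to 0.77 for Fosb and -0.52 to 0.46 for Purb. The difference between the gates in the change ranged from -0.34 to 0.46 for Ascl2, -0.62 to 0.49 for Fosb and -0.74 to 0.23 for Purb. Day 6 ranged from -0.68 to 0.79 for Klf9 against day 4 Lgr5-high and from -0.78 to 0.021 for Ascl2 against day 4 Lgr5-low. In organoids Fosb ranged from -0.34 to 0.23 in knockout against wild type and from -0.52 to 0.044 in AKF against knockout, and Purb from -0.062 to 0.18 in AKF against knockout. The causes were not tested.

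The replicate block added 4 calls in limma: Fosb at day 4 in Lgr5-low (adjusted p = 0.0394), Ascl2 between the day 4 gates (0.0226), and at day 6 Klf9 against wild type Lgr5-high (0.0172) and Purb against wild type Lgr5-low (0.0346). The gene-wise difference between a group's replicates was correlated between groups, at r = 0.024 to 0.52 in crypt and -0.039 to 0.091 in organoid groups. Between the gates r was 0.439 in the wild type and 0.339 at day 4. The highest r was between day 4 Lgr5-high and day 6, and the lowest crypt r between wild type Lgr5-high and day 4 Lgr5-low. No label ties same-numbered libraries to a mouse, so the numbers were not taken as pairing. Whether the gates of a genotype and day share mice was not tested. Equal sums moved the median of all genes by -0.353 at day 6 against wild type Lgr5-high, and median-of-ratios scaling by 0.155. The standard error of a factor's difference between groups was 0.32 to 0.46 in the crypt fit and 0.07 to 0.18 in the organoid fit, so differences of one size can pass in organoids and not in crypt cells.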
